A study of Saccharomyces cerevisiae with 11 samples.

Results

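Amino acid permeases are plasma membrane proteins that carry amino acids into the yeast cell, and most cells make several with overlapping ranges of substrates. Their genes are controlled from outside and from inside the cell. External amino acids are sensed by the SPS complex (Ssy1, Ptr3 and Ssy5), which releases the transcription factors Stp1 and Stp2 to induce permease genes such as AGP1, GNP1, BAP2, BAP3 and TAT1. Nitrogen catabolite repression, which acts through the factors Gln3 and Gat1, keeps genes such as GAP1 low while good nitrogen sources are plentiful. Transcript levels of 10 permease genes (DIP5, GAP1, AGP1, GNP1, BAP2, BAP3, TAT1, TAT2, MUP1 and CAN1) were examined in yeast strains that differ in the amino-terminal tail of histone H2A. The 10 genes are 10 of the 5415 genes tested, and all 10 had a single probe set that the array annotation assigned to them. The list was chosen by the function of the genes with the log2 signals of DIP5 against WT in ΔS15 and R11ΔS15 known, so the levels by strain are given as a description.

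The 11 arrays measured poly(A) RNA of Saccharomyces cerevisiae cells of 5 strains, with 3 biological replicates of WT and 2 of each mutant. All strains are Mata with ura3-52 and his3, have lost both chromosomal H2A gene copies (hta1-1, hta2-1), and live on an H2A gene carried by a centromeric HIS3 plasmid. WT carried unaltered H2A, R11 and K11 had an arginine or a lysine inserted at residue 11, ΔS15 lacked serine 15, and R11ΔS15 had both the inserted arginine and the deletion. The genotype label of R11ΔS15 names the inserted residue as lysine, whereas its title and the strain list of the study give arginine, which is used here. Every culture was grown untreated in YPD, a rich medium that contains amino acids and peptides, from an OD600 of 0.2 to a log phase OD600 of 0.8.

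Signals of the a-cell genes MFA1, MFA2 and STE2 were between 1335.5 and 5587.0 on all arrays, and those of the alpha-cell genes MF(ALPHA)1, MF(ALPHA)2 and STE3 between 29.1 and 224.4. The hybridization spike-in controls separated the arrays. Their mean log2 signal was 11.69 to 11.87 on 6 arrays, those of R11, of K11 and the first 2 of WT. It was 11.54 to 11.56 on the other 5, which are the ΔS15 and R11ΔS15 arrays together with WT replicate 3. The labels give no such division, and it is called here the higher and the lower spike-in set. The ratio of 3′ to 5′ signal of ACT1, a measure of RNA quality, was 1.26 to 1.35 in the higher set and 1.04 to 1.11 in the lower set. For TDH1 the ratio hardly parted the sets, with 1.426 to 1.729 in the higher and 1.141 to 1.423 in the lower. The 1.423 was that of WT replicate 3. WT replicate 3 was therefore the only WT array of the set that holds both strains without serine 15. The genes of chromosome IX were raised 1.67-fold on ΔS15 replicate 1 and on R11ΔS15 replicate 2, and none of the 10 permease genes lies on that chromosome.

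All 10 permease genes were well above background on every array, the lowest signal being 191.6 for GAP1 on WT replicate 1 against a background of 5.09. The genes differed in how far they moved over the 11 arrays, and 2 of them stood apart from the other 8. The highest signal of MUP1 was 3.11-fold its lowest, and that of DIP5 was 2.95-fold its lowest. For the other 8 genes this ratio lay between 1.35 (TAT1) and 1.81 (CAN1). DIP5 varied mostly between strains, and the strains in which it was highest lie in the lower spike-in set. MUP1 varied mostly between arrays of the same strain. The SD of its log2 signal within strains was 0.67, larger than that of 99.3% of the genes tested. For DIP5 this SD was 0.33, larger than that of 89.2% of genes, and the median over all genes was 0.17.

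**Figure D1:**
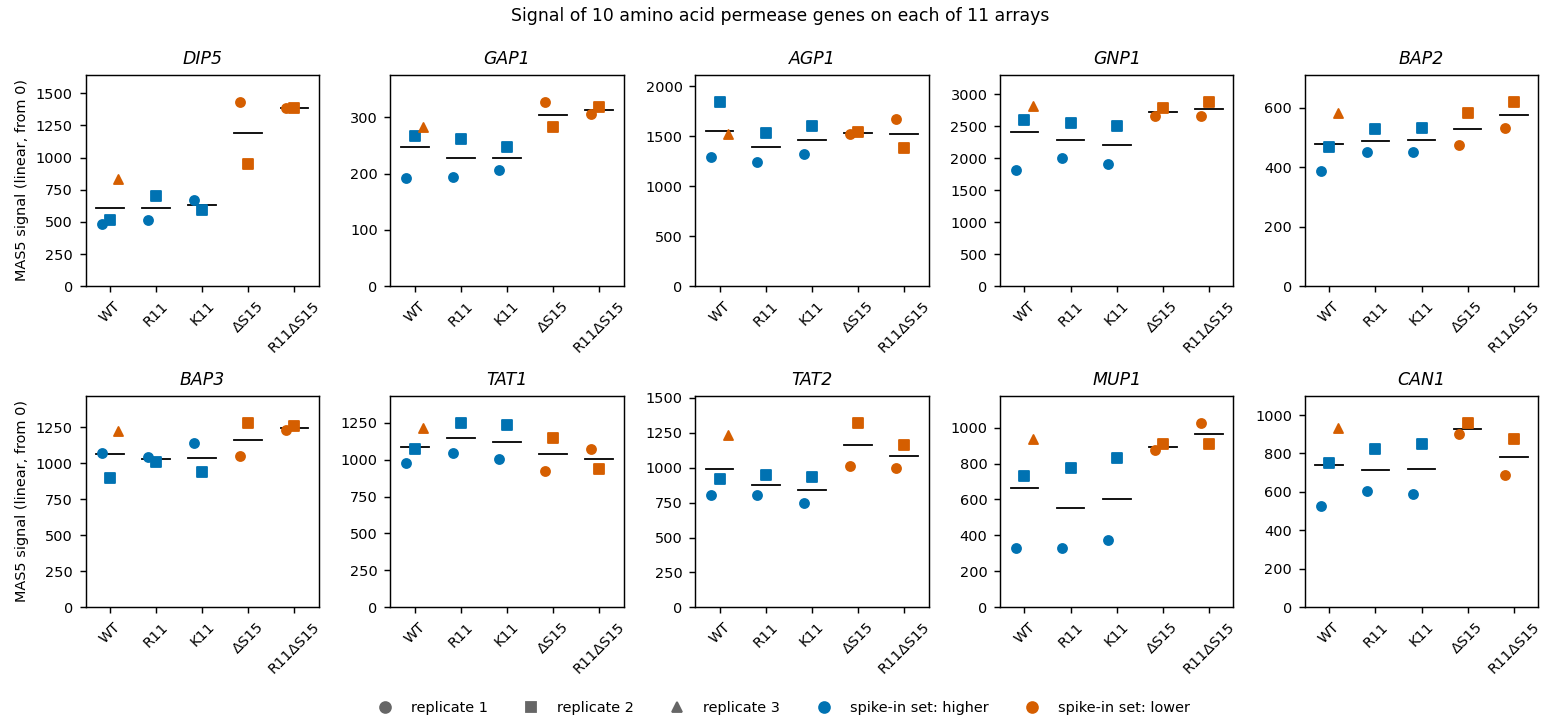
Each panel plots the MAS5 signal (linear scale, from 0) of 1 permease gene on the 11 arrays by strain, where circles, squares and triangles are replicates 1, 2 and 3, colours give the spike-in set and bars are strain means. DIP5 lies between 485 and 703 on the 6 arrays of the higher set and between 835 and 1431 on the 5 arrays of the lower set, and MUP1 lies at 329 to 373 on replicate 1 of WT, R11 and K11 and at 729 or more on the other 8 arrays.

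DIP5 (YPL265W, chromosome XVI) encodes the permease for the acidic amino acids glutamate and aspartate. Its signal was 485, 512 and 835 on WT replicates 1, 2 and 3, 516 and 703 on the R11 arrays, and 669 and 590 on the K11 arrays. On the ΔS15 arrays it was 1431 and 949, and on the R11ΔS15 arrays 1384 and 1388. All 4 arrays without serine 15 were thus above all 7 arrays with it, and the nearest were ΔS15 replicate 2 at 949 and WT replicate 3 at 835. The strain means were 611 ± 195 in WT (SD, n = 3), 1190 ± 341 in ΔS15 (SD, n = 2) and 1386 ± 3.26 in R11ΔS15 (SD, n = 2). These gave log2 fold changes against WT of 0.98 (SE 0.24, 95% confidence interval 0.45 to 1.51) in ΔS15 and 1.23 (SE 0.24, 0.70 to 1.76) in R11ΔS15. Neither passed limma's test over all genes (adjusted p = 0.782 and 0.449), and the list was chosen with these DIP5 values known.

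The DIP5 signal also followed the spike-in sets, with WT replicate 3 above the other WT arrays. Within the lower set, where WT replicate 3 is the only WT array, DIP5 was 1.71 and 1.14 times its WT level on the ΔS15 arrays and 1.66 and 1.66 times on the R11ΔS15 arrays. A fit with the spike-in set as a term makes this same comparison for ΔS15 and R11ΔS15, here and below. Only WT has arrays in both sets, so each such value rests on WT replicate 3 alone. The log2 fold changes with the spike-in set as a term were 0.48 in ΔS15 and 0.73 in R11ΔS15, and neither passed limma's test (adjusted p = 1 and 0.974). Without WT replicate 3, DIP5 had 1.23 in ΔS15 and 1.48 in R11ΔS15 and passed limma's test in both (adjusted p = 0.0400 and 0.0158), but the strains and the spike-in sets then coincide and cannot be told apart. Without ΔS15 replicate 1, which is an array with raised chromosome IX, DIP5 in ΔS15 was 0.68, and without both arrays of raised chromosome IX it was 1.23 in R11ΔS15.

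GAP1 (YKR039W, chromosome XI) encodes the general amino acid permease, which accepts nearly every amino acid and is a classical target of nitrogen catabolite repression. Its signal was 192, 266 and 282 in WT, 194 and 261 in R11, 206 and 248 in K11, 327 and 283 in ΔS15, and 306 and 319 in R11ΔS15. The arrays without serine 15 were again above all others, but by little: ΔS15 replicate 2 had 282.5 and WT replicate 3 had 282.2. The log2 fold changes against WT were 0.32 (SE 0.20) in ΔS15 and 0.36 (SE 0.20) in R11ΔS15, and their 95% confidence intervals (-0.11 to 0.75 and -0.07 to 0.79) include no change. With the spike-in set as a term they were 0.11 and 0.15.

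MUP1 (YGR055W, chromosome VII) encodes the high-affinity methionine permease. Its signal was 329, 729 and 936 in WT, 329 and 774 in R11, and 373 and 829 in K11. In the strains without serine 15 it was 876 and 908 in ΔS15 and 1024 and 907 in R11ΔS15. Replicate 1 of WT, of R11 and of K11 was low, and the other 8 had 729 or more. The strain means of 665 ± 308 in WT (SD, n = 3), 892 ± 22.4 in ΔS15 and 966 ± 83.0 in R11ΔS15 (SD, n = 2) gave log2 fold changes of 0.55 (SE 0.45) and 0.67 (SE 0.45), with arrays that overlapped WT. Without WT replicate 1 these fell to 0.11 and 0.22, so that 1 WT array carried most of the difference, and with the spike-in set as a term they were -0.07 and 0.04.

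Of the genes induced through the SPS sensor, GNP1 (YDR508C, chromosome IV), a high-affinity glutamine permease, had 1815, 2596 and 2819 in WT, 2663 and 2792 in ΔS15, and 2665 and 2878 in R11ΔS15. On the R11 arrays it had 2009 and 2552, and on the K11 arrays 1910 and 2503. In each of these 3 strains with serine 15 replicate 1 was the lowest array, as it was for MUP1. AGP1 (YCL025C, chromosome III), a permease of broad range that takes up asparagine and glutamine, had 1290, 1842 and 1518 in WT, 1523 and 1540 in ΔS15, and 1672 and 1381 in R11ΔS15. The arrays of both mutants lay inside the WT range, and the log2 fold changes were -0.00 and -0.01 with 95% confidence intervals of -0.36 to 0.36 in ΔS15 and -0.37 to 0.34 in R11ΔS15. R11 had 1241 and 1537 and K11 had 1319 and 1600.

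BAP2 and TAT1 are neighbours on chromosome II (YBR068C and YBR069C) and carry branched-chain amino acids, TAT1 also tyrosine. Their signals did not run in parallel. BAP2 had 387, 468 and 580 in WT, 473 and 581 in ΔS15, and 533 and 618 in R11ΔS15. TAT1 had 980, 1070 and 1212 in WT, 922 and 1149 in ΔS15, and 1074 and 936 in R11ΔS15. The estimates against WT were positive for BAP2 (0.15 and 0.28, SE 0.18) and negative for TAT1 (-0.07 and -0.11, SE 0.15), and both genes overlapped WT in both strains. In R11 and K11, BAP2 lay between 449 and 530 and TAT1 between 1005 and 1246. BAP3 (YDR046C, chromosome IV), also a branched-chain amino acid permease, had 1073, 899 and 1222 in WT, 1050 and 1279 in ΔS15, and 1230 and 1260 in R11ΔS15. Both R11ΔS15 arrays were above WT, by a log2 fold change of 0.24 (SE 0.15), which was 0.03 with the spike-in set as a term.

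TAT2 (YOL020W, chromosome XV) encodes the high-affinity tryptophan and tyrosine permease and CAN1 (YEL063C, chromosome V) the arginine permease. TAT2 had 806, 919 and 1238 in WT, 1013 and 1319 in ΔS15, and 999 and 1166 in R11ΔS15. CAN1 had 529, 751 and 934 in WT, 899 and 957 in ΔS15, and 688 and 874 in R11ΔS15. Both genes overlapped WT in both strains, since WT replicate 3 was above at least 1 array of each, with log2 fold changes of 0.25 and 0.15 for TAT2 (SE 0.19) and 0.37 and 0.11 for CAN1 (SE 0.24). With the spike-in set as a term these were -0.10 and -0.20 for TAT2 and -0.01 and -0.27 for CAN1. CAN1 lies between AVT2, a vacuolar amino acid transporter gene, and NPR2, a regulator of amino acid signalling, and the log2 fold changes of AVT2 were 0.11 in ΔS15 and 0.25 in R11ΔS15.

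Counted over the 10 genes, limma called 0 in ΔS15 and 0 in R11ΔS15 against WT at an adjusted p of 0.05, where it also called 0% of the 5415 genes. At an unadjusted p of 0.05, 1 of the 10 genes, DIP5, was higher in each strain, beside 2.68% of all genes in ΔS15 and 4.34% in R11ΔS15. The list was chosen with the DIP5 values known, so this count is a description. At the same threshold 0 of the 10 were lower, beside 2.60% and 5.71%. In ΔS15, 2 of 10 genes (DIP5 and GAP1) had arrays that were all above WT, beside 7.90% of all genes, and 0 had arrays all below, beside 7.79%. In R11ΔS15, 3 of 10 (DIP5, GAP1 and BAP3) were above without overlap, beside 10.6% of all genes, and 0 below, beside 12.6%. The estimate was above 0 for 8 of 10 genes in each strain, beside 50.7% and 50.3% of all genes, and the median log2 fold change of the 10 was 0.23 in both, against 0.00 over all genes. Both comparisons use the same WT arrays. With the spike-in set as a term, a comparison with WT replicate 3 alone, the estimates other than DIP5 ranged from -0.24 to 0.11 in ΔS15. In R11ΔS15 they ranged from -0.27 to 0.15.

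**Figure D2:**
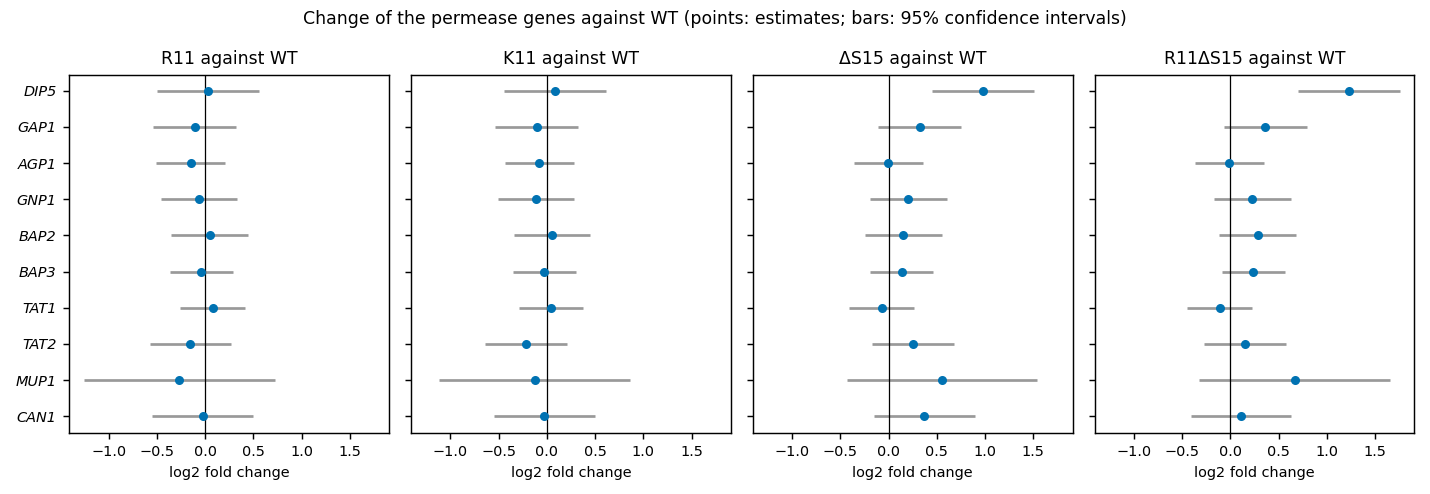
Each panel plots the log2 fold change of the 10 permease genes in 1 mutant strain against WT, as limma's estimate with its 95% confidence interval. The unadjusted intervals of DIP5 in ΔS15 (0.45 to 1.51) and R11ΔS15 (0.70 to 1.76) lie above 0. Neither change passed limma's test (adjusted p = 0.782 and 0.449), and the list was chosen with these DIP5 values known. The intervals of MUP1 are the widest in every panel.

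In the strains with serine 15 and an inserted residue the permease genes overlapped their WT signals. Against WT, limma called 0 of 10 genes in R11 and 0 of 10 in K11, beside 0% of all genes, and at an unadjusted p of 0.05 it passed 0 of 10 in each, beside 0.351% and 0.425%. For 0 of the 10 genes did both R11 arrays or both K11 arrays lie above or below all WT arrays, where 3.62% of all genes were above and 4.71% below in R11, and 4.60% and 4.17% in K11. The estimates ran from -0.27 (MUP1) to 0.08 (TAT1) in R11 and from -0.22 (TAT2) to 0.09 (DIP5) in K11. For DIP5 the 95% confidence intervals were -0.50 to 0.56 in R11 and -0.44 to 0.61 in K11. In this fit, which does not pair arrays by number, MUP1 gives no direction. It moved from -0.89 to 0.35 in R11 and from -0.70 to 0.45 in K11 according to which array was left out. On replicates 1 and 2 MUP1 had 329 and 729 in WT, 329 and 774 in R11, and 373 and 829 in K11. With the replicate number as a block, a fit in which R11 and K11 are compared with WT replicates 1 and 2, MUP1 had 0.04 in R11 and 0.18 in K11 and DIP5 had 0.28 and 0.33. In that fit CAN1, GNP1 and BAP3 also turned from below to above 0 in both strains, and 0 of 10 genes passed (limma's adjusted p = 1 in R11 and 0.999 in K11 for each). Between R11 and K11 themselves the estimates lay between -0.14 and 0.06, with 0 of 10 genes called, beside 0% of all genes, and 0 of 10 at an unadjusted p of 0.05, beside 0.222%.

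The inserted arginine was also compared within the strains without serine 15, which lie in 1 spike-in set. DIP5 was 0.25 higher in R11ΔS15 than in ΔS15 on the log2 scale (SE 0.27, 95% confidence interval -0.33 to 0.83), and the difference was -0.05 without ΔS15 replicate 2 and 0.55 without ΔS15 replicate 1. CAN1 had 688 and 874 in R11ΔS15 against 899 and 957 in ΔS15 and was the 1 gene of 10 without overlap, lower by a log2 fold change of -0.26 (SE 0.26), beside 7.94% of all genes lower and 8.37% higher. The other 8 genes had estimates of -0.10 to 0.13. Limma called 0 of 10 genes (0% of all genes, and 0 of 10 at an unadjusted p of 0.05 beside 0.425%). For the interaction, that is the effect of arginine without serine 15 minus its effect with it, the estimates ranged from -0.23 (CAN1) to 0.38 (MUP1), DIP5 had 0.22 (SE 0.36), and 0 of 10 genes were called, beside 0% of all genes, or passed an unadjusted p of 0.05, beside 0.129%.

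The pattern of MUP1, low on replicate 1 of 3 strains, was followed in the other permease genes after their values had been seen. The comparison sets the arrays numbered 2 against those numbered 1 in WT, R11 and K11, all in the higher spike-in set, with the strain as a term (6 arrays). The labels do not say what the number stands for, and if it marks cultures handled together the comparison is between 2 such sets, not between 3 independent pairs. Limma called 9 of the 10 permease genes, 8 higher and 1 lower in the arrays numbered 2, beside 45.3% of all genes called and 23.2% called higher. MUP1, from which the comparison was chosen, is among the 8 higher. Without overlap were 8 permease genes higher, beside 26.5% of all genes, and 1 lower, beside 26.0%. The median log2 difference of the 10 genes was 0.31, against 0.00 for all genes.

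MUP1 had the largest difference of the 10, with 2.22-fold in WT, 2.35-fold in R11 and 2.22-fold in K11 (log2 1.18, SE 0.05, limma's adjusted p = 2.06e-05). The comparison was chosen from these MUP1 values, so its p-value is a description and not an independent test. MUP1 was among the 0.240% of genes that rose past 2-fold. CAN1 rose by 0.49 (adjusted p = 0.000414), GNP1 by 0.42 (0.00051), GAP1 by 0.39 (0.00361) and AGP1 by 0.37 (0.00178), by limma's adjusted p in each case. These 4 genes serve different substrates, arginine, glutamine, amino acids at large and a broad neutral range. TAT2, BAP2 and TAT1 rose by 0.25, 0.25 and 0.23, and TAT1 no longer passed without either K11 array (adjusted p = 0.0595 and 0.0614). BAP3 fell by 0.19 (limma's adjusted p = 0.0253), a call that was lost without either array of WT (0.12) or of K11 (0.144 and 0.142). DIP5 did not pass (0.11, adjusted p = 0.401), with 1.05-fold in WT, 1.36-fold in R11 and 0.882-fold in K11.

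**Figure D3:**
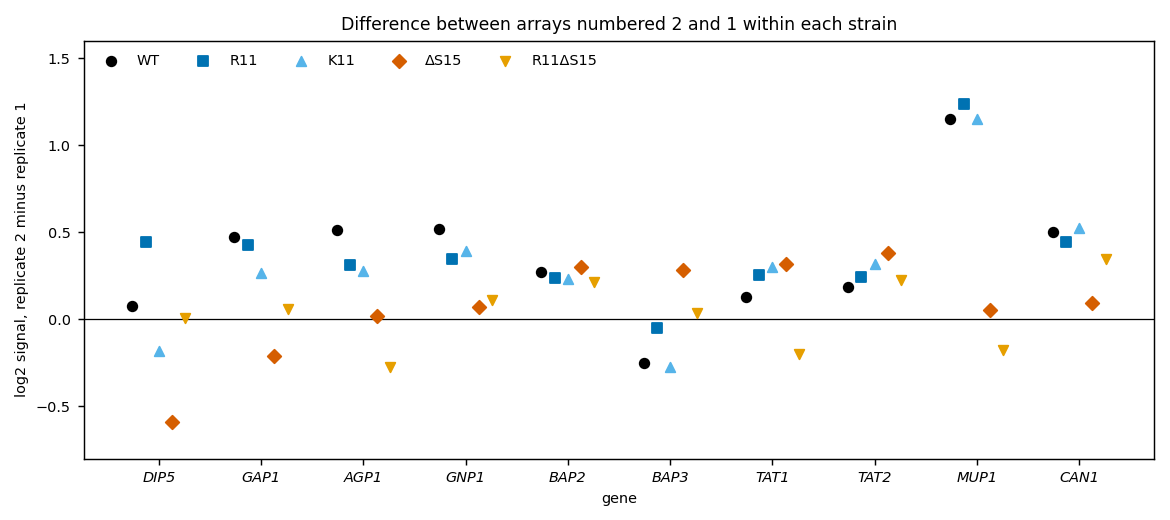
For each permease gene the points give the log2 signal of the array numbered 2 minus that numbered 1, with 1 point for each of the 5 strains. WT, R11 and K11 lie together above 1.1 for MUP1 and above 0.2 for CAN1, GNP1, GAP1, AGP1 and BAP2, while MUP1 in ΔS15 (0.05) and R11ΔS15 (-0.18) lies near 0.

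The strains without serine 15 were examined in the same way, in a comparison also chosen after the MUP1 values had been seen. The p-value of MUP1 given below is therefore a description and not an independent test. MUP1 on replicate 2 was 1.04-fold its level on replicate 1 in ΔS15 and 0.885-fold in R11ΔS15. The difference between strains with and without serine 15 was -1.24 for MUP1 (SE 0.11, limma's adjusted p = 0.0167, 10 arrays), and it was the 1 permease gene of 10 called, beside 7.89% of all genes. The estimate stayed between -1.35 and -1.13 with any array left out, but without any single array of WT, R11 or K11 it no longer passed, and then 0 of 10 permease genes and 0 of all genes were called. Without either R11ΔS15 array 7 of 10 permease genes were called, beside 26.1% or 26.2% of all genes, and without either ΔS15 array 4, beside 25.5% or 25.6%. The strains with and without serine 15 also lie in different spike-in sets, and the parts of the strain and the set cannot be told apart here. Chromosome IX was raised on ΔS15 replicate 1 and on R11ΔS15 replicate 2. In both strains the difference thus also sets a raised array against a normal array, in opposite order. The part of this was not tested.

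Signals of the permease genes tended to run together over the 11 arrays. Of the 45 pairs among the 10 genes, 41 had a positive Pearson correlation of log2 signal, with a median of 0.61. The share over all pairs of genes was not computed. Correlations of that size were common, since TAT2 with 0.61 ranked only 1051 by likeness to DIP5. The pairs most alike were GNP1 with MUP1 (0.97), GAP1 with MUP1 (0.94) and GAP1 with GNP1 (0.93). DIP5 was most like GAP1 (0.84) and least like TAT1 (-0.31), which was the lowest of all pairs. These are descriptions over arrays that share strains, replicate numbers and spike-in sets.

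**Figure D4:**
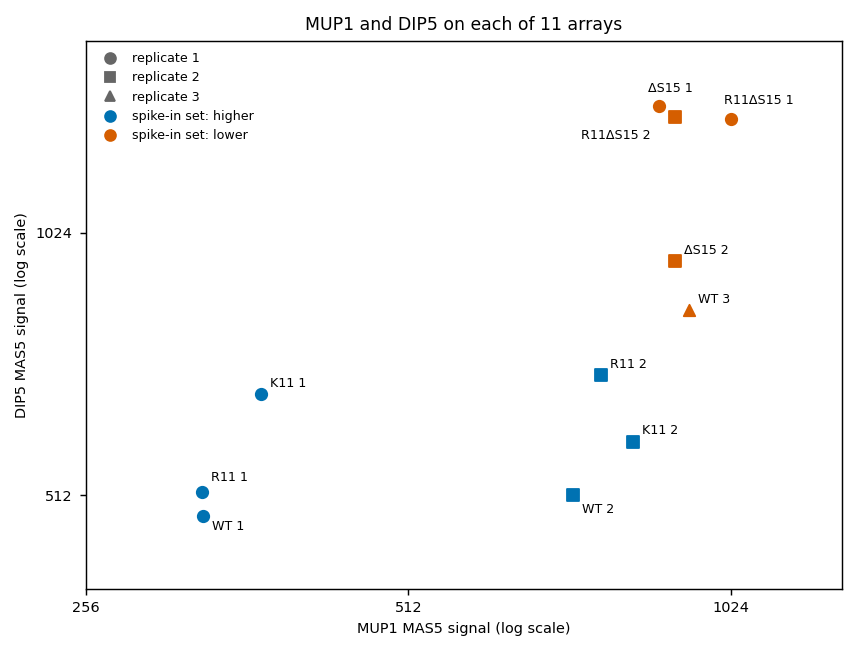
The MAS5 signal of DIP5 is plotted against that of MUP1 on each of the 11 arrays (both axes on a log scale), with symbols for the replicate number and colours for the spike-in set. Replicates 1 and 2 of WT, R11 and K11 part along MUP1 (329 to 373 against 729 to 829) but not along DIP5 (485 to 669 against 512 to 703), and the 4 arrays without serine 15 have DIP5 signals of 949 to 1431.

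The genes whose log2 signal was most like that of DIP5 over the 11 arrays were not permease genes. They were YNL134C (Pearson r = 0.97), CIT1 (0.97), which encodes mitochondrial citrate synthase, DCW1 (0.96), GPT2 (0.96), an enzyme of glycerolipid synthesis, and CYB2 (0.96), the mitochondrial lactate dehydrogenase, whereas GAP1 ranked 211 and MUP1 783 by this measure. CIT1 had 1610, 1651 and 2349 in WT, 3294 and 2377 in ΔS15, and 3369 and 3176 in R11ΔS15. CYB2 had 142, 144 and 156 in WT, 225 and 190 in ΔS15, and 220 and 209 in R11ΔS15. As for DIP5, WT replicate 3 was the highest WT array of both genes. ΔS15 replicate 2 was the lowest of the 4 arrays without serine 15. A shared order follows from choosing genes by their likeness to DIP5 on these arrays. GPT2 overlapped WT in ΔS15, with 389 on ΔS15 replicate 2 and 403 on WT replicate 3.

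Genes that act with the permeases were described from 6 further lists, and 0 genes of any list passed limma's test against WT in R11, K11, ΔS15 or R11ΔS15. At an unadjusted p of 0.05, 0 of their 67 genes passed in R11 and K11, beside 0.351% and 0.425% of all genes. In ΔS15 7 were higher and 0 lower, beside 2.68% and 2.60% of all genes, and 5 of these 7 lie on chromosome IX, raised on ΔS15 replicate 1. In R11ΔS15 5 were higher and 0 lower, beside 4.34% and 5.71% of all genes, and 2 of the 5 lie on chromosome IX, raised on R11ΔS15 replicate 2. The 10 further plasma membrane permease genes, among them HIP1 (histidine), LYP1 (lysine) and PUT4 (proline), had medians of 0.04 in ΔS15 and 0.01 in R11ΔS15 (7 and 5 of 10 above 0). HIP1 (-0.41, SE 0.19) and MUP3 (-0.38, SE 0.17), a low-affinity methionine permease gene, were below WT without overlap in R11ΔS15. These were 2 of the 10 genes, beside 12.6% of all genes, and 0 were above without overlap, beside 10.6%. The 11 genes of the SPS pathway had medians of 0.12 and 0.04, the 5 regulators of nitrogen catabolite repression -0.04 and 0.14, the 12 genes of permease folding, ubiquitination and traffic 0.07 and 0.03, and the 12 vacuolar transporter genes 0.12 and 0.19, against 0.00 for all genes.

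The 17 other targets of nitrogen catabolite repression, which share that control with GAP1, had medians of 0.28 in ΔS15 and 0.29 in R11ΔS15. Of the 17 estimates, 10 and 13 were above 0, beside 50.7% and 50.3% of all genes. These values include 5 genes of chromosome IX, whose ΔS15 estimates ran from 0.32 (DAL2) to 0.72 (DAL7). The genes on other chromosomes ran from -0.41 (ASP3-1) to 0.47 (PUT2) in ΔS15. They went both ways, with DUR3 at -0.30, DAL5 at -0.25 and MEP2 at -0.23 beside PRB1 at 0.46 and CPS1 at 0.385. In ΔS15 the genes off chromosome IX thus showed no general rise. A median without the chromosome IX genes was not computed for either strain, so no general rise of the list is claimed. Without overlap 6 and 5 genes were above WT, beside 7.90% and 10.6% of all genes, and 1 in each strain was below, ASP3-1 in ΔS15 and DUR3 in R11ΔS15, beside 7.79% and 12.6%. The 4 largest estimates in ΔS15 were those of DAL1, DAL3, DAL4 and DAL7, genes of allantoin use on chromosome IX. In R11ΔS15 the proline use genes PUT1 (0.67, SE 0.27) and PUT2 (0.56, SE 0.28), which are not on chromosome IX and overlapped WT, were among the 4 largest with DAL3 and DAL7. DAL3 had 179, 209 and 212 in WT, 440 and 221 in ΔS15, and 278 and 469 in R11ΔS15, so that it was highest on the arrays on which chromosome IX was raised. The log2 fold changes in ΔS15 were 0.60, 0.65, 0.51 and 0.72 for these genes, and 0.27, 0.15, 0.22 and 0.38 without those 2 arrays. In R11ΔS15 they were 0.52, 0.86, 0.44 and 0.59, and 0.21, 0.48, 0.16 and 0.09 without them. GAP1, which is not on chromosome IX, had 0.22 and 0.33 without the same arrays.

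In the comparison of arrays numbered 2 with 1, 5 of the 10 further permease genes passed limma's test and all 5 rose, beside 23.2% of all genes that rose, and the smallest adjusted p was that of MMP1, the S-methylmethionine permease gene. MMP1 had 198, 456 and 401 in WT, 231 and 405 in R11, and 229 and 459 in K11, and 340 and 406 in ΔS15 and 425 and 314 in R11ΔS15. It rose 2.01-fold (limma's adjusted p = 0.000202) and AGP2, which also affects carnitine and polyamine uptake, 1.99-fold (adjusted p = 0.00146). SAM3, the S-adenosylmethionine permease gene, rose by 0.57 on the log2 scale (limma's adjusted p = 0.00228), HIP1 by 0.29 and LYP1 by 0.18. MUP3 had 0.13 (adjusted p = 0.146) and did not pass. These genes were named after their values had been seen. Of the other lists, 3 of 11 SPS genes rose, 1 of 5 nitrogen regulators rose (GLN3, 0.55) and 1 fell (GAT1, -0.20), 7 of 17 other targets rose and 4 fell, 4 of 12 folding and traffic genes rose, and 7 of 12 vacuolar transporter genes rose, with none of the last 2 lists lower. Over all genes 45.3% were called and 23.2% were higher in this comparison. The shares of SPS genes and of nitrogen regulators that rose were near the share of all genes that rose. Among the SPS genes 0 fell.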

How the data were processed

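Total RNA was extracted with hot acid phenol, poly(A) RNA was purified, and a core facility labelled it and hybridized it to Affymetrix Yeast Genome 2.0 arrays. The authors deposited 1 linear signal intensity per probe set and array, named MAS5 in the file and normalized per the manufacturer's procedure. The table held 10928 probe sets, and each array's mean over all of them after trimming 2% at each end was 500.2 to 500.3, so the arrays had been scaled to a common mean. A rise of some genes therefore lowers others. Scanner files were not used here. Precision is limited by the number of arrays. The genome build of the array annotation was not given in the sources used here, so chromosome names and neighbours come from RefSeq and no coordinates are printed.

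From the deposited intensity values log2 was taken. Of 5498 S. cerevisiae probe sets, the one with the highest mean was kept for each gene, 1 probe set with several genes was left out, and genes were tested where the mean exceeded the 95th percentile of 1746 S. pombe probe sets (signal 5.09), which left 5415. Limma 3.58.1 in R 4.3.3 fitted 1 coefficient per strain to all 11 arrays (lmFit and eBayes with trend, 6 residual degrees of freedom, two-sided), with Benjamini-Hochberg adjustment over all 5415 genes and a threshold of 0.05. The script was tested on simulated data. Figures were drawn with Python 3.11.15 and matplotlib 3.10.9. All 11 columns matched a sample title or description, and 0 other columns were left out.

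The 10 permease genes and the 6 further lists were chosen with earlier results of these data known. The genes named are all 10 members. From the other lists the rule names at most 4 genes a list, those with the largest change of at least 0.5 on the log2 scale and no overlap with WT in ΔS15 or R11ΔS15. The 5 genes most correlated with DIP5 are also named. HIP1, MUP3, AVT2, PUT1, PUT2, ASP3-1, DUR3 and the genes named in the comparison of replicate numbers fall outside it. The alternatives were an offset of 50, quantile normalization, centring of arrays, no filter or a minimum mean signal of 50, leaving out shared probe sets, the replicate number as a block, the spike-in set as a term, array weights, no trend, only the strains compared, and each array left out in turn. After seeing the data, the comparisons of replicate numbers and a fit without the 2 arrays of raised chromosome IX were chosen in addition.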

Additional observations from a re-analysis of the deposited data

How the results depend on the processing

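Of the counts of genes called against WT, between mutants and for the interaction, those not printed here were 0 under every alternative. With the replicate block, under which WT replicate 3 has no partner, 173 genes passed limma's test in ΔS15 and 343 in R11ΔS15, among them 2 permease genes in each: DIP5 (1.23, adjusted p = 0.0353) and TAT2 (0.43, 0.0489) in ΔS15, and DIP5 (1.48, 0.0195) and BAP2 (0.43, 0.0385) in R11ΔS15. Strain and spike-in set then coincide. Same-numbered arrays deviated together among WT, R11 and K11 (r = 0.49 to 0.66, 6 pairs). They hardly did so in pairs with ΔS15 or R11ΔS15 (-0.05 to 0.21, 14 pairs), so the number does not pair all samples. Mutant strains with 2 arrays give the same r under both numbers (0.662 for R11 with K11), so the pairs are not independent. With 1 array left out, 0 to 1 genes were called in R11, 0 to 38 in ΔS15 and 0 to 128 in R11ΔS15, and 0 to 1 permease genes in each of the last 2 strains, the highest counts being those without R11 replicate 2 and WT replicate 3. A single array left in a strain is assumed to vary like the others.

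For arrays numbered 2 against 1, leaving out an array gave 1709 to 2086 genes and 7 to 9 permease genes, and a fit to all 11 arrays gave 90 and 0. The change of that difference without serine 15 called 427 genes, 0 to 1418 with an array left out (0 to 7 permease genes), 40 with array weights and 239 without trend. With centred arrays it called 421 of 5415 genes, among them 3 permease genes. Without shared probe sets it called 435 of 5304 genes, among them 2 permease genes. The cause was not tested.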
